A study of Mus musculus with 18 samples.

Results

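A set of 9 rows of 24421 gene symbols in the count tables are described here: Wdfy1, Ide, Nnt, Entpd4, Hmgn2, Gpn2, Pydc3, Ddc and C130026I21Rik. They are 9 genes taken as possible marks of where the mice came from. Wdfy1, Ide, Nnt and Entpd4 are known to vary between or within C57BL/6 substrains. The other 5 were picked as genes that separate Sesn2-knockout from wild-type hearts after sham and after ischaemia and reperfusion alike. Of these 5, Ddc and C130026I21Rik overlapped between Sesn2-knockout and aged wild-type hearts and separated Sesn2-knockout from young wild-type hearts only. The members were thus chosen by their CPM in Sesn2-knockout against wild-type libraries, and these values are given as a description with no test. The question is which groups share a level of each gene.

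RNA from left ventricle was sequenced in 18 libraries, 3 in each of 6 groups. Sesn2-/- mice (Sesn2-KO) were 3 to 4 months old and were bred by the authors' laboratory, aged WT mice were 24 to 26 months old and came from Charles River, and young WT mice were 3 to 4 months old and came from Jackson. Each set of mice was studied after ischaemia and reperfusion (IR), in which the left anterior descending coronary artery was tied for 45 min and then opened for 24 h, or after a sham operation without the tie. All mice are described as C57BL/6J in the labels' growth protocol and as C57BL/6 in the strain field. The labels do not say how the Sesn2 allele was made, or that knockout and wild-type mice were littermates. Genotype and source cannot be told apart in Sesn2-KO against young WT, and age and source cannot be told apart in aged against young WT. In Sesn2-KO against aged WT genotype, source and age all differ and cannot be told apart.

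A library's total ran from 9404531 to 14458047 gene counts, and values are CPM, which scale counts to that total. Sesn2, the targeted gene, had 0 to 0.362 CPM in the 6 Sesn2-KO libraries and 2.50 to 6.03 CPM in the 12 WT libraries; no library went against its genotype label. The ventricular markers Myl2, Myl3, Myh6 and Tnni3 summed to 14792 to 19840 CPM in Sesn2-KO IR, 17368 to 22367 CPM in aged WT IR and 17458 to 22927 CPM in young WT IR hearts. After sham they summed to 18285 to 19856 CPM in Sesn2-KO, below the 23101 to 25044 CPM of aged WT and the 24149 to 25048 CPM of young WT, and the part of this in the levels of the members was not tested. In 6 libraries, 1 in each group, longer transcripts stood higher than in the other libraries of the group. These were Sesn2-KO IR 3, Sesn2-KO sham 3, aged WT IR 3, aged WT sham 1, young WT IR 3 and young WT sham 1. Spearman's rho of that deviation against length was 0.343 to 0.522 across genes. Fits without these 6 have 1 library fewer in each group, so calls lost there cannot be told apart from lost replication.

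Inbred mouse colonies that are bred apart collect their own mutations, and C57BL/6 has split into substrains that differ in known genes. Nnt encodes the mitochondrial transhydrogenase, which makes NADPH, and C57BL/6J carries a deletion of several of its exons. Ide encodes the insulin-degrading enzyme, and a copy-number gain that takes in Ide and its neighbour Fgfbp3 has been described within C57BL/6J. A knockout strain can also carry, beside its targeted gene, DNA of the cells or strain in which the allele was made. In bulk tissue, fewer cells of a type and less RNA per cell cannot be told apart.

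On GRCm38 (GENCODE M21), Hmgn2 (chromosome 4, 133964738 to 133968650) lies 1.45 Mb and Gpn2 (chromosome 4, 133584362 to 133591735) 1.07 Mb from Sesn2 (chromosome 4, 132492032 to 132510501). The other members lie on other chromosomes than Sesn2: Wdfy1 (79702262 to 79776143), C130026I21Rik (84992690 to 85270566) and Pydc3 (173673675 to 173698395) on chromosome 1, Ddc on chromosome 11 (11814101 to 11898144), Nnt on chromosome 13 (119335448 to 119408997), Entpd4 on chromosome 14 (69337174 to 69367270) and Ide on chromosome 19 (37268743 to 37337852). All are annotated as protein-coding. Pydc3 is an older name of Ifi208 in RefSeq, and its position is that of Ifi208.

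A set of 5 promoters is shown: the pair on the chromosome of Sesn2, the gene nearly missing from Sesn2-KO, and both genes that set young WT apart. They come from RefSeq on GRCm38.p6, the C57BL/6J reference, and run from 250 bases before to 50 bases after an annotated start, 5′ to 3′ on the gene's strand. Whether the mice of any source carried exactly these bases cannot be read from gene counts.
Hmgn2, chr4:133967942-133968241, minus strand: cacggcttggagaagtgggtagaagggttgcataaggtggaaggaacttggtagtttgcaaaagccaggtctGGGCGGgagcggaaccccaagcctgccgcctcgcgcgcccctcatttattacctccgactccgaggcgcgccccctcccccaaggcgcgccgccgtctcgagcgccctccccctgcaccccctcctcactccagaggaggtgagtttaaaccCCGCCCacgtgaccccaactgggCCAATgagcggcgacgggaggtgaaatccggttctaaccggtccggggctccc
Gpn2, chr4:133584123-133584422, plus strand: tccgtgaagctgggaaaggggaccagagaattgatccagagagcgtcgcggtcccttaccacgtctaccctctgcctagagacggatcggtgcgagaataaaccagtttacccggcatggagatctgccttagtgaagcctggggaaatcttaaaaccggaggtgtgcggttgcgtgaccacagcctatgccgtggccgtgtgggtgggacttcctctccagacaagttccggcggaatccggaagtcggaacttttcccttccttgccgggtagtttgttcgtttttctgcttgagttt
Pydc3, chr1:173673415-173673714, plus strand: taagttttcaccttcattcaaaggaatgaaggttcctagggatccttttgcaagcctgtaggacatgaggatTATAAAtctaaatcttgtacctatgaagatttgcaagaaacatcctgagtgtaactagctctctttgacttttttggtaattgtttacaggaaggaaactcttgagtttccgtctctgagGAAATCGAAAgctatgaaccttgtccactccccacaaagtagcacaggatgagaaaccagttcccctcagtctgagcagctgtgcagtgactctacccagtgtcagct
Ddc, chr11:11898095-11898394, minus strand: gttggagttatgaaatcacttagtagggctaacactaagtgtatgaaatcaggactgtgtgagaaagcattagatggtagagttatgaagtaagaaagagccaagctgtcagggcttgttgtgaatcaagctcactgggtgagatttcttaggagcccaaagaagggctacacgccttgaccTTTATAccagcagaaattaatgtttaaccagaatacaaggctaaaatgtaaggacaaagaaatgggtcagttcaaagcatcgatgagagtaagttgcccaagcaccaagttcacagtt
C130026I21Rik, chr1:85270517-85270816, minus strand: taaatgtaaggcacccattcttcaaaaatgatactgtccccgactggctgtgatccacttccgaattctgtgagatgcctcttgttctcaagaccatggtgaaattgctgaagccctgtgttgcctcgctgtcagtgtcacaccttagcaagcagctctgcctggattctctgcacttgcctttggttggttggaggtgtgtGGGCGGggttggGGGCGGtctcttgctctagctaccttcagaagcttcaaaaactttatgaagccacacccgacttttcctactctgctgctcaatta
Capitals mark matches on either strand to the GC box GGGCGG, the CCAAT box CCAAT, the TATA box TATAAA or the interferon-response element (GAAA, any 2 bases, GAAA). These were in 35.7%, 37.4%, 13.6% and 3.44% of the 32851 RefSeq promoter windows of the same length. Hmgn2 held 2 GC-box matches and 1 CCAAT-box match, and C130026I21Rik held 2 GC-box matches. Ddc held 1 TATA-box match, at -68 from the annotated start and on the strand opposite to the gene. Pydc3 held 1 TATA-box match at -178 and 1 match to the interferon-response element at -58, both on the gene's strand. These are matches of letters, and their use as promoter elements was not tested. Gpn2 held none of these letters in this window.

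Wdfy1 stood apart in Sesn2-KO hearts, while aged and young WT overlapped. Wdfy1 encodes a FYVE and WD-repeat protein of endosomes. Its CPM values were 52.3, 77.6 and 85.6 in Sesn2-KO IR and 46.2, 48.4 and 54 in Sesn2-KO sham hearts. In aged WT they were 11.1, 10.6 and 17.4 after IR and 10.1, 9.86 and 12.4 after sham, and in young WT they were 8.99, 9.89 and 15.6 after IR and 10.5, 9.26 and 11.3 after sham. Every Sesn2-KO library was above every WT library, with 46.2 CPM as the lowest in Sesn2-KO and 17.4 CPM as the highest in WT. The mean was 60.7 ± 16.6 CPM in Sesn2-KO (SD, n = 6), against 11.9 ± 2.82 CPM in aged WT and 10.9 ± 2.45 CPM in young WT (SD, n = 6 each). The ratio of means was 5.09 over aged WT and 5.55 over young WT.

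**Figure D1:**
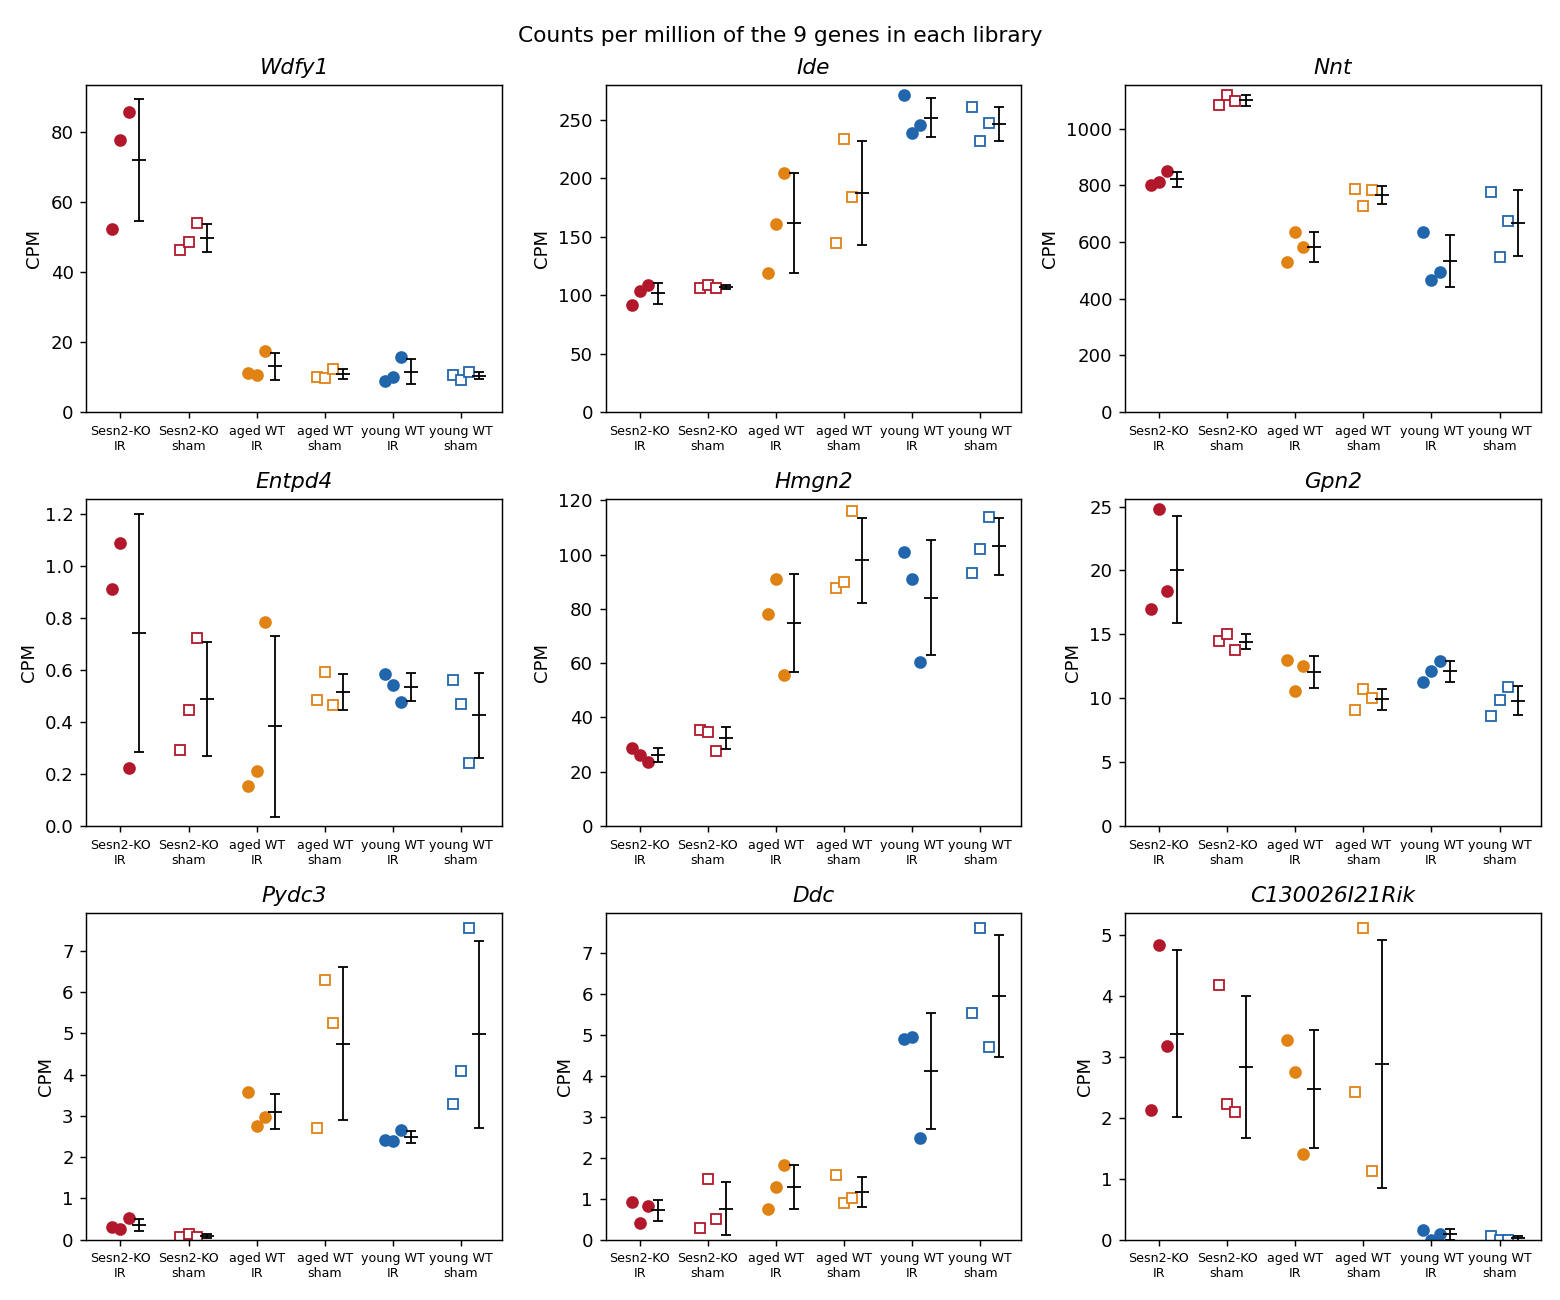
CPM of each of the 9 genes (y axis, from 0) in the 18 libraries, by group (x axis). Filled circles are IR libraries and open squares sham libraries, and the bar beside each group is the mean ± SD of 3 libraries. Wdfy1 is at 46.2 CPM or more in Sesn2-KO and at 17.4 CPM or less in WT, Ddc and C130026I21Rik separate young WT from the other 4 groups, and Ide falls between in aged WT.

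Hmgn2 and Gpn2, the pair on the chromosome of the targeted gene, lay on opposite sides of WT in Sesn2-KO and overlapped between the WT sources. Hmgn2 encodes a nucleosome-binding protein of the high-mobility-group N family. Its CPM was 28.9, 26.2 and 23.5 in Sesn2-KO IR and 35.2, 34.5 and 27.6 in Sesn2-KO sham hearts. The 6 aged WT libraries ran from 55.5 to 116 CPM (median 89.0) and the 6 young WT libraries from 60.3 to 114 CPM (median 97.2). No Sesn2-KO library reached the lowest WT library, and the ratio of means was 0.339 over aged WT and 0.313 over young WT. Within both WT sources the lowest Hmgn2 value was in a library with the length trend, at 55.5 CPM in aged WT IR 3 and 60.3 CPM in young WT IR 3. Without the 6 libraries with that trend the log2 fold change of Hmgn2 in Sesn2-KO over young WT was -1.76 against -1.70 with all libraries.

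Gpn2 encodes a small GTPase of the GPN-loop family. Its CPM was 17.0, 24.8 and 18.4 in Sesn2-KO IR and 14.5, 15 and 13.8 in Sesn2-KO sham hearts. Aged WT libraries ran from 9.06 to 13.0 CPM and young WT libraries from 8.63 to 12.9 CPM. The Sesn2-KO libraries were all above the WT libraries, but the gap was small, with 13.8 CPM as the lowest in Sesn2-KO and 13.0 CPM as the highest in WT. The means were 17.3 ± 4.06 CPM in Sesn2-KO, 11 ± 1.5 CPM in aged WT and 10.9 ± 1.52 CPM in young WT (SD, n = 6 each).

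Nnt was higher in Sesn2-KO hearts in each operation, while aged and young WT overlapped. Its CPM was 802, 811 and 851 in Sesn2-KO IR and 1083, 1120 and 1096 in Sesn2-KO sham hearts. In aged WT it was 528, 634 and 582 after IR and 786, 728 and 782 after sham, and in young WT it was 637, 466 and 494 after IR and 778, 548 and 674 after sham. The lowest Sesn2-KO library, at 802 CPM, lay just above the highest WT library, at 786 CPM in aged WT sham. The ratio of means was 1.43 over aged WT and 1.60 over young WT. The count tables hold 1 number per gene, so exons inside and outside the C57BL/6J deletion could not be compared.

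Pydc3 was nearly missing from Sesn2-KO hearts. It belongs to a chromosome 1 cluster of pyrin-domain genes of interferon-inducible type, whose members are similar in sequence, so reads may be split among them. Counts were 3, 3 and 7 in Sesn2-KO IR and 1, 2 and 1 in Sesn2-KO sham libraries, in all 0.0724 to 0.518 CPM. The 6 aged WT libraries had 2.70 to 6.30 CPM and the 6 young WT libraries 2.40 to 7.55 CPM. Against young WT the ratio of counts summed over 3 libraries, scaled to their totals, was 0.148 after IR (13 against 88 counts) and 0.0200 after sham (4 against 192 counts). The highest Pydc3 value, 7.55 CPM, was in young WT sham 3, where the 8 interferon-response genes summed to 3058 CPM; the other 17 libraries had sums of 187 to 689 CPM. After sham, interferon-response sums were 187 to 215 CPM in Sesn2-KO, 227 to 689 CPM in aged WT and 213 to 3058 CPM in young WT. After IR they were 191 to 254 CPM in Sesn2-KO, 192 to 257 CPM in aged WT and 194 to 235 CPM in young WT. All 8 genes had counts in every group, and their part in the level of Pydc3 was not tested. The nearest tested neighbour of Pydc3, AI607873, and the related gene Ifi204 were higher in Sesn2-KO than in young WT. Their log2 fold changes were 0.62 ± 0.14 and 0.65 ± 0.18 (edgeR adjusted p = 0.0129 and 0.0355). Against aged WT neither was called (0.07 and 0.21, edgeR adjusted p = 0.819 and 0.552). AI607873 was at 31.3 CPM in Sesn2-KO, 29.3 CPM in aged WT and 20.5 CPM in young WT. Of the related genes, Ifi205 was called in Sesn2-KO over young WT (0.91, edgeR adjusted p = 0.0158). Ifi203 lay the other way and was not called (-0.44, edgeR adjusted p = 0.0802). The Pydc3 neighbours Pydc4 and Pyhin1 were at 0.579 and 5.85 CPM in Sesn2-KO, against 0.943 and 4.95 CPM in young WT. They were not called (log2 fold changes -0.55 and 0.16, edgeR adjusted p = 0.431 and 0.793).

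Ddc and C130026I21Rik set young WT apart, with aged WT overlapping Sesn2-KO. Ddc encodes aromatic L-amino acid decarboxylase, which makes dopamine and serotonin. Its CPM was 0.913, 0.417 and 0.814 in Sesn2-KO IR and 0.293, 1.49 and 0.506 in Sesn2-KO sham hearts. In aged WT it was 0.761, 1.28 and 1.83 after IR and 1.59, 0.889 and 1.03 after sham. In young WT it was 4.91, 4.95 and 2.48 after IR and 5.54, 7.61 and 4.71 after sham. No aged WT library reached the lowest young WT library, while aged WT and Sesn2-KO overlapped. The means were 0.739 ± 0.437 CPM in Sesn2-KO, 1.23 ± 0.418 CPM in aged WT and 5.03 ± 1.65 CPM in young WT (SD, n = 6 each), and the ratio of Sesn2-KO over aged WT was 0.601, close to the 0.597 of Ide.

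The difference between the WT sources was tested with edgeR's quasi-likelihood test, adjusted by Benjamini-Hochberg over 13859 genes, on the mean of IR and sham. Ddc was lower in aged than in young WT, by a log2 fold change of -1.98 ± 0.32 (SE, adjusted p = 0.00618, 6 of 6 aged libraries below the 6 young ones). Without the 6 libraries with the length trend it was at -2.46 and not called (adjusted p = 0.0543). The young WT libraries also entered the contrast that chose the members, so this test is not wholly independent of the choice.

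C130026I21Rik was close to absent from young WT and present in both other sources. It lies in a chromosome 1 cluster of Sp100-related genes with near-identical copies, and its annotated span takes in Gm7609, so its counts are uncertain. Counts were 21, 58 and 43 in Sesn2-KO IR and 57, 30 and 29 in Sesn2-KO sham libraries. They were 43, 26 and 16 in aged WT IR and 35, 69 and 12 in aged WT sham libraries, against 2, 0 and 1 in young WT IR and 1, 0 and 0 in young WT sham libraries. The lowest value outside young WT was 1.12 CPM, in aged WT sham 3, and the highest within it was 0.167 CPM. Aged over young WT gave a ratio of 29.5 after IR (85 against 3 counts, exact 95% counting interval 9.77 to 146) and 118 after sham (116 against 1, interval 20.8 to 4702). The aged against young test called the gene higher (adjusted p = 0.000176, 6 of 6 libraries). It stayed called under each of 25 alternatives, with adjusted p up to 0.0466. The young WT libraries also entered the choice of this gene, so neither the test nor the alternatives are independent of that choice. Sesn2-KO over aged WT gave ratios of 1.38 after IR and 0.945 after sham, and the libraries overlapped. The intervals pool 3 libraries a group and cover counting error only.

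Gm7609, inside the same span, had a like order of levels. It was at 3.36 ± 1.26 CPM in Sesn2-KO and 3.78 ± 3.16 CPM in aged WT, against 1.11 ± 0.407 CPM in young WT (SD, n = 6 each). It was called in Sesn2-KO over young WT (log2 fold change 1.61 ± 0.37, edgeR adjusted p = 0.0133), and in aged over young WT it was at 1.67 (adjusted p = 0.064); it was called without aged WT sham 1 (adjusted p = 0.0202), without a filter on low counts (0.0475) and by DESeq2's Wald test (0.00228). Sp100, Sp110 and Sp140, the named members of the cluster, had 27.9 to 63.1, 10.7 to 24.3 and 4.25 to 11.6 CPM over all libraries.

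Ide was graded, with Sesn2-KO lowest, young WT highest and aged WT between and spread. Its CPM was 91.8, 104 and 109 in Sesn2-KO IR and 106, 109 and 106 in Sesn2-KO sham hearts. In aged WT it was 119, 161 and 205 after IR and 145, 234 and 184 after sham. In young WT it was 271, 239 and 246 after IR and 261, 232 and 247 after sham. Sesn2-KO lay below all WT libraries, and 1 aged library, sham 2, lay within the young range. The coefficient of variation was 6.22% in Sesn2-KO and 5.77% in young WT but 23.7% in aged WT. The mean was 104 ± 6.49 CPM in Sesn2-KO, 175 ± 41.4 CPM in aged WT and 250 ± 14.4 CPM in young WT (SD, n = 6 each). Aged minus young WT was -0.49 ± 0.13 on the log2 scale and did not pass (edgeR adjusted p = 0.121). It was called without aged WT IR 3 (-0.59, adjusted p = 0.0342) and by DESeq2's Wald test (adjusted p = 0.0229), and adjusted p was 0.0229 to 0.263 over the alternatives.

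Fgfbp3 was looked at beside Ide because the copy-number gain described in C57BL/6J takes in both. Fgfbp3 encodes a fibroblast growth factor binding protein and lies 349 kb from Ide. It was at 2.93 ± 0.964 CPM in Sesn2-KO and 3.99 ± 1.61 CPM in aged WT, against 6.19 ± 1.40 CPM in young WT (SD, n = 6 each). In Sesn2-KO against young WT it fell by 1.09 ± 0.26 on the log2 scale (edgeR adjusted p = 0.0149). It was not called without the 6 libraries with the length trend, a fit with 1 library fewer in each group (-0.93, adjusted p = 0.0600). In aged against young WT it was at -0.64 ± 0.25 (adjusted p = 0.538). Within aged WT the lowest Ide library, IR 1, also had the lowest Fgfbp3, at 2.13 CPM. The next lowest in Ide, sham 1, had 2.77 CPM of Fgfbp3, and the highest in Ide, sham 2, had 5.56 CPM. The order was not kept throughout: the highest Fgfbp3 in aged WT, 6.26 CPM, was in sham 3 with 184 CPM of Ide, and IR 3, with 205 CPM of Ide, had 3.58 CPM. In Sesn2-KO the library lowest in Ide, IR 1, was the highest in Fgfbp3, at 4.16 CPM. March5 and Cpeb3 lie between Fgfbp3 and Ide. March5 was at 142 CPM in Sesn2-KO, 140 CPM in aged WT and 133 CPM in young WT. In Sesn2-KO against young WT March5 was not called (log2 fold change 0.07, edgeR adjusted p = 0.584). Cpeb3 was called lower in that comparison (-0.48, edgeR adjusted p = 0.0169). DNA copy number was not measured.

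**Figure D2:**
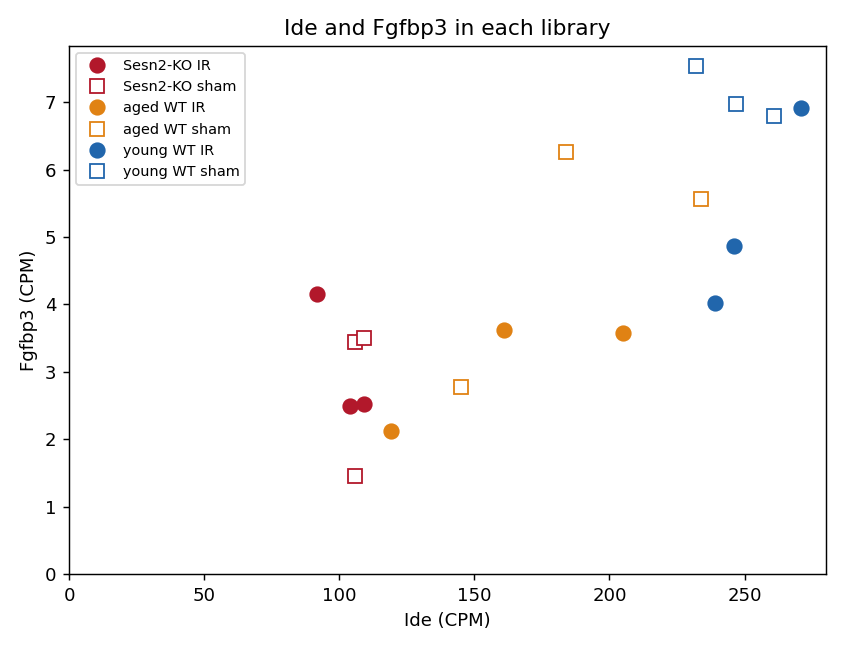
CPM of Ide (x axis) and Fgfbp3 (y axis) in each of the 18 libraries, coloured by source, with filled circles for IR and open squares for sham. Sesn2-KO libraries lie at 91.8 to 109 CPM of Ide, young WT at 232 to 271 CPM, and aged WT is spread from 119 to 234 CPM.

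Entpd4, a nucleotide phosphatase gene of the Golgi, did not separate the sources. It had 2 to 13 counts per library, at 0.614 ± 0.349 CPM in Sesn2-KO, 0.449 ± 0.236 CPM in aged WT and 0.479 ± 0.124 CPM in young WT (SD, n = 6 each), and all ranges overlapped. Entpd4b, its near-identical copy on chromosome 14, has no row in the count tables, and reads that match both genes may have been left out. Its log2 fold change in aged against young WT was -0.08 ± 0.44 (edgeR adjusted p = 1), and a difference of the size seen for Gpn2 or Nnt was not detectable at this depth.

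By source, then, 8 of 9 members had no overlap between the 6 Sesn2-KO and the 6 young WT libraries, and over all tested genes 1.99% had none. Between Sesn2-KO and aged WT 6 of 9 had no overlap (1.20% of all genes): Wdfy1, Nnt and Gpn2 higher, and Ide, Hmgn2 and Pydc3 lower in Sesn2-KO. Both contrasts of Sesn2-KO chose the members, and nothing is read from these counts. Between aged and young WT 2 of 9 had none (0.642% of all genes), and the same 2, C130026I21Rik and Ddc, were called, where the test called 0.469% of all genes (0.382% higher and 0.0866% lower). The young WT libraries also entered the choice of the members, so these 2 counts are not independent of it. The median log2 fold change of the 9 members in aged against young WT was 0.03, against -0.01 over all genes tested. Wdfy1, Nnt, Hmgn2, Gpn2 and Pydc3 had aged minus young log2 fold changes of -0.10 to 0.19 (adjusted p 0.83 to 1). A p that misses the threshold does not show that the levels are the same. All 9 passed the filter on low counts.

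**Figure D3:**
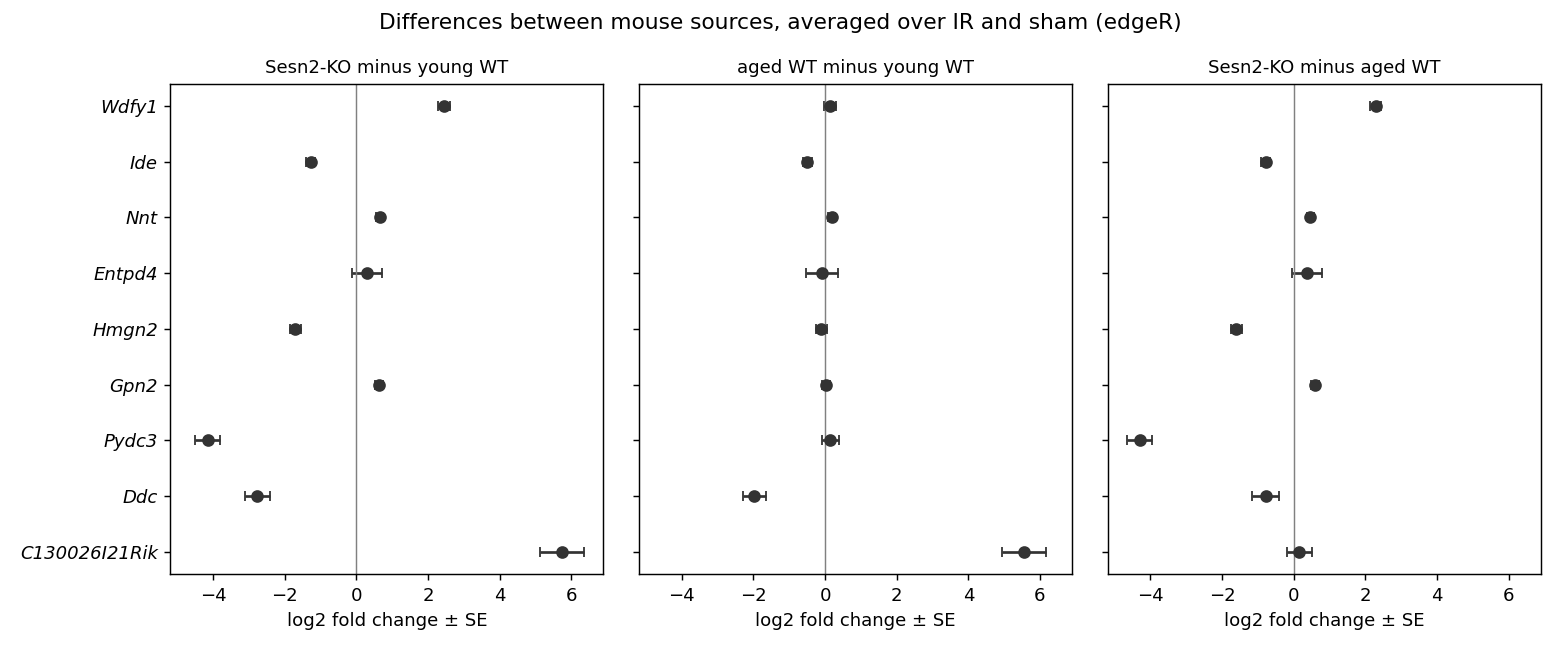
Log2 fold change with SE (x axis) of each gene (y axis) for Sesn2-KO minus young WT, aged WT minus young WT and Sesn2-KO minus aged WT, each the mean of IR and sham from 1 edgeR fit. Wdfy1, Hmgn2, Gpn2, Nnt and Pydc3 lie near 0 in the middle panel, Ddc and C130026I21Rik do not, and Ide lies between.

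IR and sham hearts were compared in the same fit. The members were chosen as separating the sources in sham and IR alike, so this comparison is not independent of the choice. None of the 9 was called between IR and sham in Sesn2-KO, aged WT or young WT, where edgeR called 0%, 7.61% and 6.07% of all genes. For 9 genes that is near these shares, and nothing about the members is read from it. In Sesn2-KO the unadjusted edgeR p was below 0.05 for 4 of the 9 members and for 2037 of all 13859 genes. In aged WT it was so for 1 member and 3282 genes, and in young WT for 2 members and 2904 genes. These counts are not independent of the choice of members either, and nothing is read from them. DESeq2's Wald test called 140 genes between IR and sham in Sesn2-KO. Nnt had log2 fold changes of IR over sham of -0.48 ± 0.14 in Sesn2-KO (adjusted p = 0.202), -0.38 ± 0.14 in aged WT (0.117) and -0.34 ± 0.14 in young WT (0.19), where it was called without young WT IR 1 (-0.52, adjusted p = 0.0271). Nnt libraries did not overlap between IR and sham within Sesn2-KO or within aged WT, but did within young WT. Gpn2 and Pydc3 libraries did not overlap within Sesn2-KO or within young WT, but did within aged WT. The share of all genes without such overlap was not counted, and nothing is read from this. Gpn2 was at 0.42 ± 0.14 in Sesn2-KO (adjusted p = 0.219), 0.29 ± 0.15 in aged WT (0.239) and 0.28 ± 0.15 in young WT (0.287). Pydc3 was at 1.74 ± 0.71 in Sesn2-KO, from 13 counts after IR and 4 after sham (adjusted p = 0.273), -0.59 ± 0.33 in aged WT (0.302) and -1.02 ± 0.34 in young WT (0.0868). The IR response of aged minus young WT was called for no member (edgeR adjusted p = 1 for each of the 9, and no unadjusted p below 0.05). It was called for no gene at all, and the unadjusted edgeR p was below 0.05 for 152 of the 13859 tested. Nothing about the members is read from this. The differences of response that involve Sesn2-KO were fitted too but are given no p, since the genes were chosen as alike in sham and IR; for Pydc3 the log2 difference was 2.34 ± 0.78 over aged WT and 2.76 ± 0.78 over young WT, from the few counts above.

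The genes lying beside the members were not themselves chosen for their values and were tested in the same fit. Their places were set by members chosen with the same libraries, so the shares called are not wholly independent of that choice. Gm7609 lies inside the span of C130026I21Rik, and the Pydc3 cluster holds genes similar in sequence. The counts of such neighbours may not be separate from those of the member. Within 250 kb of a member 44 genes were tested. In Sesn2-KO against young WT 9 rose and 3 fell, 27.3% against 9.72% of all genes (5.69% higher and 4.03% lower), and 19.7% of 132 genes within 1000 kb. Those that fell were Sfn beside Gpn2, Cpeb3 beside Ide and Gm7120 beside Nnt. Those that rose were Serpine2 beside Wdfy1, Rps6ka1 and Ubxn11 beside Hmgn2, Trnp1 and Zdhhc18 beside Gpn2, AI607873 and Ifi204 beside Pydc3, Ikzf1 beside Ddc, and Gm7609. Sfn, Serpine2, Trnp1 and Gm7609 were called under each of 25 alternatives, and AI607873 and Cpeb3 under 24 of 25. Rps6ka1 was called under 19, Gm7120 under 16, Ifi204 under 15, Zdhhc18 under 12, Ikzf1 under 8 and Ubxn11 under 7 of the 25. The count of 12 was 6 without young WT sham 1 or Sesn2-KO IR 2, 7 without Sesn2-KO sham 1, Sesn2-KO sham 3 or Sesn2-KO IR 3, and 5 without the 6 libraries with the length trend. In Sesn2-KO against aged WT Serpine2 rose and Sfn and Cep85 fell, 6.82% against 4.13% of all genes (2.4% higher and 1.73% lower); 1 was called without aged WT sham 1, aged WT sham 3, aged WT IR 3, Sesn2-KO sham 1 or Sesn2-KO IR 2. In aged against young WT edgeR called none of the 44, where it called 0.469% of all genes, and DESeq2's Wald test called 2.

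Sfn and Serpine2 were called against both WT sources. Sfn, which encodes the 14-3-3 sigma protein and lies 8.82 kb from Gpn2, fell to 1.03 CPM in Sesn2-KO, against 4.04 CPM in aged WT and 3.05 CPM in young WT. Its log2 fold changes were -1.97 ± 0.27 against aged WT (edgeR adjusted p = 0.00139) and -1.53 ± 0.28 against young WT (adjusted p = 0.00291). Sfn thus fell beside a gene that was higher in Sesn2-KO. Serpine2, a serine protease inhibitor gene 18.1 kb from Wdfy1, was at 77.3 CPM in Sesn2-KO, against 57.4 CPM in aged WT and 53.5 CPM in young WT. It rose by 0.40 ± 0.10 on the log2 scale over aged WT (adjusted p = 0.0334; the call was lost on leaving out any of 10 libraries 1 at a time, with adjusted p up to 0.123 over all alternatives) and by 0.52 ± 0.10 over young WT (adjusted p = 0.00405). Mrpl44, which overlaps the end of Wdfy1, had a Sesn2-KO over young WT log2 fold change of -0.14 (adjusted p = 0.455), and Dhdds, 0.378 kb from Hmgn2, at -0.13 (adjusted p = 0.509). Fignl1, 5.14 kb from Ddc, was at 0.01 (adjusted p = 0.997) and Grb10, on its other side, at -0.34 (adjusted p = 0.179), and Gpatch3, 0.119 kb from Gpn2, at 0.13 (adjusted p = 0.506). Over all 9 members the nearest tested gene was called for 2, AI607873 (25 kb from Pydc3) and Gm7609, and not called for 7.

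**Figure D4:**
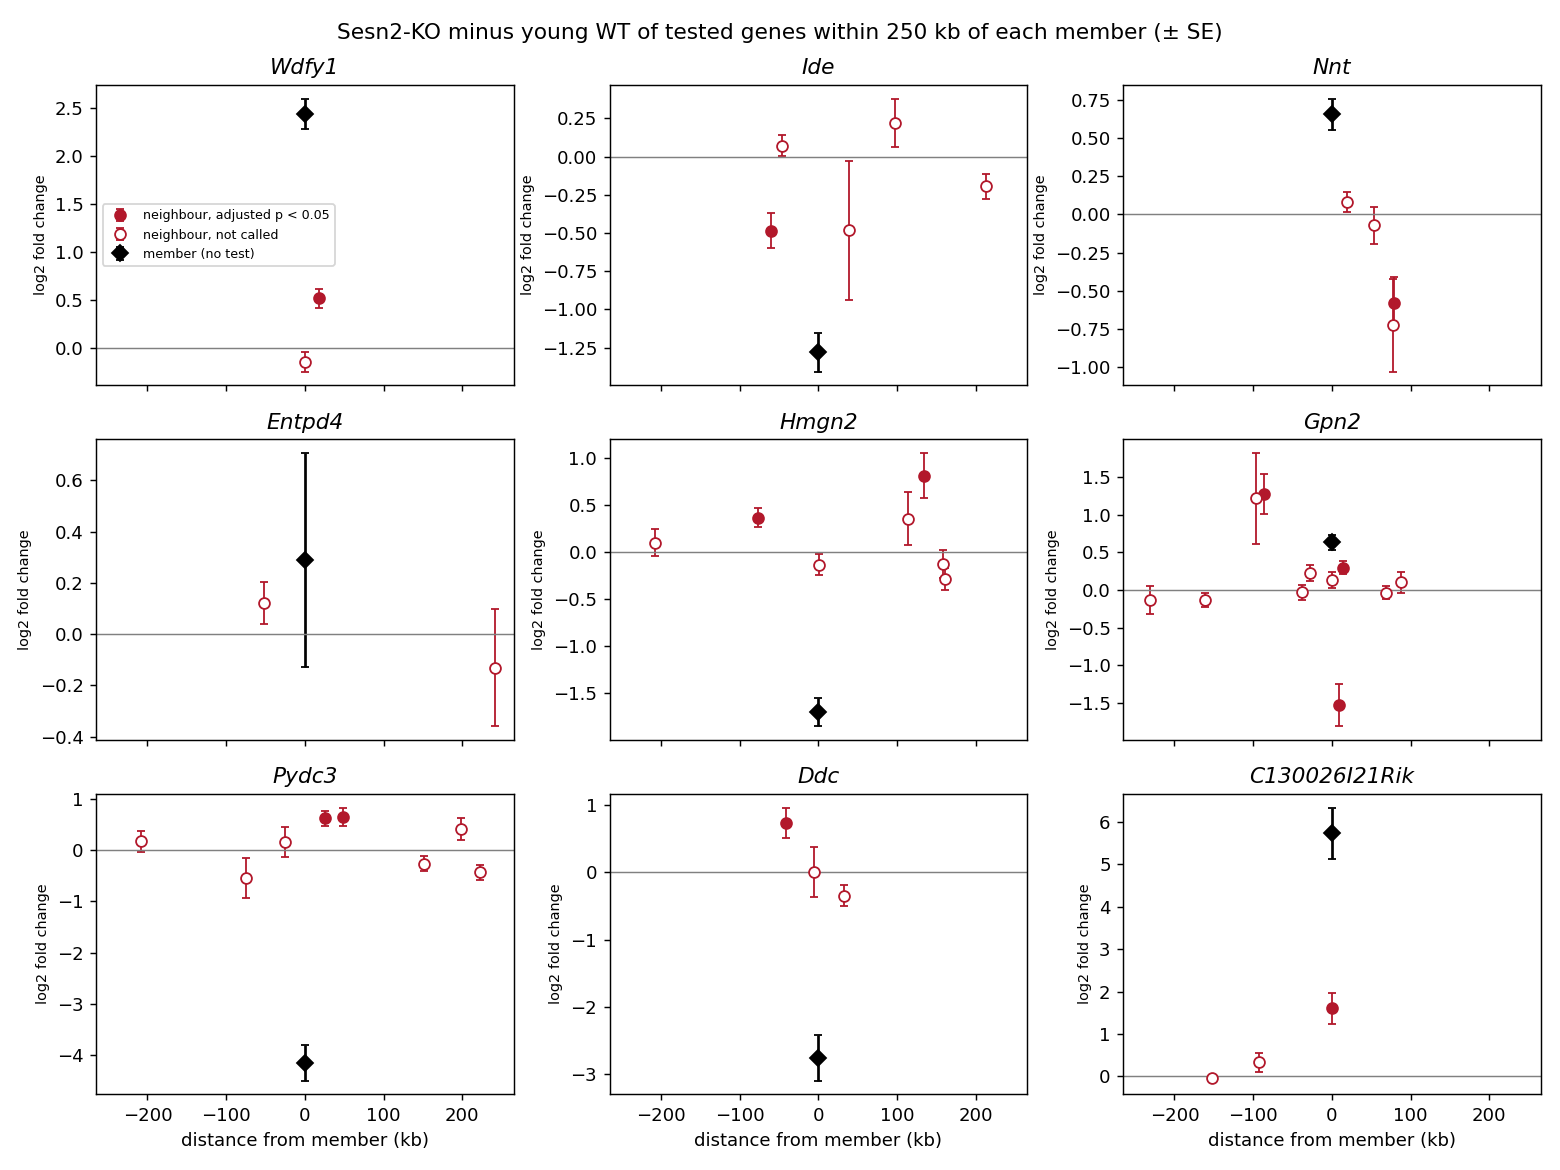
Log2 fold change with SE of Sesn2-KO minus young WT (y axis) against the distance from each member in kb (x axis, 0 where genes overlap) for the 44 tested neighbours; filled circles passed the test, open circles did not, and the diamond is the member, shown without a test. Hmgn2 is at -1.70 and Dhdds, beside it, at -0.13. The members were chosen by this contrast, so their distance from their neighbours is not read as a result.

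Of 12 genes listed as varying between or within C57BL/6 substrains, 4 are members and 8 are not, and 6 of the 8 were tested. In Sesn2-KO against young WT 1 of these 6 was called, Fgfbp3, where 9.72% of all genes were, and the median log2 fold change was -0.45 against 0.01 over all genes. Cyfip2, a gene with a coding change in C57BL/6N, was at -0.28 (edgeR adjusted p = 0.191), Mmrn1 at -0.06 (0.895), Dock2 at 0.49 (0.167) and Crb1 at -0.61 (0.596). None of the 6 was called in aged against young WT (adjusted p 0.538 to 1), where edgeR called 0.469% of all genes. Coding changes need not alter a gene's count.

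The genes most like each member over the 18 libraries were ranked by Pearson's r of log2 CPM, as a description. For Wdfy1 the first was Ptprt (r = 0.935), for Hmgn2 Akr1e1 (0.943), for Gpn2 Ift43 (0.92), for Nnt Col22a1 (0.854) and for Entpd4 Stx1a (0.675). For Pydc3 it was Sesn2 itself (0.909), followed by Hmgn2 (0.906), all of them low in Sesn2-KO. For C130026I21Rik the first were Cpne7 (0.942) and Cdh22 (0.933); Cdh22 was at 16.6 CPM in Sesn2-KO and 11.2 CPM in aged WT, against 2.24 CPM in young WT. Ddc had Pcp4 (0.852) and Tmem35 (0.846), with Tmem35 at 2.51 CPM in Sesn2-KO and 2.12 CPM in aged WT, against 7.15 CPM in young WT. For Ide the first was Slc38a4 (0.839). The ranking depended on the measure: by Spearman's rho the first gene was another for each member (Shisa3 for Wdfy1 and Rsad2 for Pydc3, for example), and 5 of the 27 genes ranked in the first 3 were shared. These libraries share source and operation, so genes that follow either will correlate.

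Markers of other cells were summed in the same libraries, with no test. Macrophage markers (Adgre1, Csf1r and Cd68) summed to 166 to 193 CPM in Sesn2-KO, 121 to 212 CPM in aged WT and 111 to 189 CPM in young WT, which overlapped. Neutrophil markers (S100a8, S100a9 and Csf3r) summed to 26.1 to 74.1 CPM in Sesn2-KO sham hearts, against 4.22 to 15 CPM in aged WT and 4.63 to 6.17 CPM in young WT sham hearts. Atrial markers (Myl7, Myl4 and Sln) summed to 7.76 to 602 CPM in Sesn2-KO IR hearts, against 2.98 to 4.57 CPM in aged WT and 2.58 to 4.83 CPM in young WT IR hearts. After sham they summed to 4.41 to 66.1 CPM in Sesn2-KO, 10.5 to 52.6 CPM in aged WT and 12.2 to 90.6 CPM in young WT. Of all these markers, 1 atrial gene had no counts in young WT IR hearts, and the others had counts in every group. Their part in the levels of the members was not tested.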

How the data were processed

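Left-ventricle RNA of 18 mice was sequenced as stranded poly(A) libraries. The authors deposited raw read counts per gene symbol; HTSeq, SAMtools, TopHat2, Bowtie2 and FastQC were run with mm10, per the submitters' processing notes. The sources used here give no version, annotation or strand option. Rows that name no gene were left out (no feature 6.12% to 9.06%, ambiguous 0.631% to 0.759% of reads).

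CPM was computed over the total of gene rows. All 6 groups were fitted together with edgeR 4.0.16 (TMM, robust quasi-likelihood test, R 4.3.3), with Benjamini-Hochberg adjustment over 13859 genes kept by filterByExpr, at adjusted p below 0.05. The fit was tested on simulated data. DESeq2 1.42.0 was an alternative, with other scalings, no filter, a replicate block and libraries left out. The labels name no litter, day or batch, and each p-value rests on sample-to-sample spread, which may be partly technical. Counting intervals are exact, at 95%, and cover counting error only. Positions are from GENCODE M21, which placed 24018 of 24421 symbols (98.3%).

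The members and gene lists were chosen with earlier results of these data known. Named genes were the members, the substrain list, related copies, called or nearest neighbours within 250 kb, and the 3 genes most like each member. Some results on genes in these lists are not reported here.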

Additional observations from a re-analysis of the deposited data

How the results depend on the processing

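Counts of genes called changed most on leaving out the 6 length-trend libraries and on leaving out single libraries, and the cause was not tested. Leaving out the 6 takes 1 library from each group, so an effect of the trend cannot be told apart from lost replication. Without the 6 length-trend libraries the counts were 27 in aged against young WT (65 with all), 60 in Sesn2-KO against aged WT (572), 106 between IR and sham in aged WT (1054) and 16 in young WT (841), and neighbours called were 5 against young WT and 1 against aged WT. DESeq2's Wald test called 141, 1053, 1318 in young WT IR against sham, 140 in Sesn2-KO IR against sham, and 2 neighbours in aged against young WT. Fitting only the groups compared gave 169 in young WT, and no filter gave 1 neighbour in aged against young WT.

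Leaving out each library in turn gave 737 to 1696 calls in Sesn2-KO against young WT, 45 to 87 in aged against young WT, 159 to 868 in Sesn2-KO against aged WT, 0 to 1, 232 to 1369 and 270 to 1465 between IR and sham in Sesn2-KO, aged WT and young WT, and 6 to 12, 0 to 1 and 1 to 4 neighbours in the 3 source comparisons.

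Signs changed 20 times over 10 results, all uncalled, with ranges on leaving out a library as follows. Aged against young WT gave -0.613 to 0.13 for Entpd4 and -0.017 to 0.079 for Gpn2. IR against sham gave -0.54 to 0.753 for Ddc and -0.13 to 0.582 for C130026I21Rik in Sesn2-KO. In aged WT it gave -0.22 to 0.43 for Ddc, -0.585 to 0.472 for C130026I21Rik and -1.47 to 0.022 for Entpd4, and -0.043 for Wdfy1 without the length-trend libraries. In young WT it gave -0.068 to 0.066 for Ide (-0.002 with upper-quartile scaling, -0.012 with no filter) and -0.148 to 0.254 for Wdfy1 (-0.167 without the length-trend libraries).

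Same-numbered libraries correlated at -0.389 to 0.72, over 0.1 in 16 of 45 pairs, so the numbers did not pair the samples throughout. Library 3 of Sesn2-KO IR, Sesn2-KO sham, aged WT IR and young WT IR correlated with each other at 0.376 to 0.72. Sham 1 of aged and young WT correlated at 0.476. All of these have the length trend, and such libraries with unlike numbers also correlated, as Sesn2-KO IR 3 and aged WT sham 1 at 0.472. With the replicate block the counts were 1492, 71 and 645 between sources and 0, 1236 and 879 between IR and sham in Sesn2-KO, aged WT and young WT. At 2 to 13 counts per library, Entpd4 is limited by depth.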
